A study of Rattus norvegicus with 4 samples.

Results

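The Dlg scaffolds and the calmodulin-dependent protein kinases (CaM kinases) of the postsynaptic side of the synapse were examined on neurobiology arrays of cultured rat cortical neurons. The members were the probe sets whose symbol in the platform annotation was Dlg1, Dlg2, Dlg3, Dlg4, Dlgap1, Camk2a, Camk2b, Camk2d, Camk2g or Camk4. Of these 10 genes 7 had a probe set with their symbol, and they brought 14 of the 1263 probe sets that were not array controls. Dlg3 and Dlg4 had 1 probe set each, and the 5 kinase genes had 12 together. Dlg1, Dlg2 and Dlgap1 had no probe set under their symbol, and 118 probe sets without a symbol were not matched to genes.

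The neurons were prepared from rat cortex on embryonic day 17 and grown for 14 days in Neurobasal medium with B27 supplement, and the strain is not given in the sources used here. Control cultures received phosphate-buffered saline (PBS) for 4 h and KCl cultures received 25 mM KCl for 4 h, which depolarizes neurons, and each group was read on 2 arrays. Titles and treatment protocols agree on the groups, whereas the description label gives all 4 samples the same wording of an unstimulated state. Separate cultures for the arrays of a group are not stated in the labels. The p-values therefore reflect nothing beyond the differences among these 4 arrays, which may be technical. The comparison asked which genes respond to depolarization.

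The Dlg proteins are membrane-associated guanylate kinases that hold receptors and signalling enzymes in place under the postsynaptic membrane. Dlg4 encodes PSD-95, the best known scaffold of excitatory synapses, and Dlg3 encodes SAP102, a close relative that also binds NMDA receptors. CaM kinase II is a multi-subunit enzyme that is switched on by calcium-bound calmodulin and can keep its activity through autophosphorylation. Its α and β subunits, from Camk2a and Camk2b, predominate in forebrain neurons, while the δ and γ subunits, from Camk2d and Camk2g, are found in many tissues. Camk4 encodes a nuclear kinase that phosphorylates the transcription factor CREB. Depolarization opens voltage-gated calcium channels, and the calcium that enters is the signal these kinases read.

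No scaffold or kinase probe set passed the test after KCl. The values were array intensities in arbitrary units, taken to log2 and compared with limma, and a probe set was called at a Benjamini-Hochberg adjusted p below 0.05 over the 947 probe sets tested. Of the 14 members 12 were tested and 0 were called, against 10.8% of all tested probe sets, 5.49% called higher and 5.28% called lower after KCl. The unadjusted limma p lay below 0.05 for 2 of the 12, 1 scaffold (Dlg3) and 1 kinase probe set (Camk2d), both lower after KCl. Among all 947 tested it lay below 0.05 for 25.6% in either direction, and 154 of the 947 were lower after KCl at that p. An adjusted p below 0.1 was reached by the same 2 of 12 (16.7%). Of the 947 tested, 82 (8.66%) were lower and 68 were higher at this level. With an ordinary t statistic the number of adjusted calls was also 0, and 4 of 12 members had an unadjusted p below 0.05, against 16.6% of all tested. With 2 arrays per group an exact two-sided permutation test cannot give a p below 0.33, and the test draws its power from limma's sharing of variances across probe sets.

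Whether a probe set saw signal was judged against 19 array probe sets that target bacterial or yeast genes. Their highest intensity was 73.7 and their median 9.05. A value at or below 73.7 is called within background. Of the 14 members 8 lay above that value on all 4 arrays: both scaffolds, both Camk2b probe sets, 3 of 5 for Camk2d, and Camk2g. Of the 12 tested members these 8 made up 66.7%, against 69.1% of all tested probe sets. Probes differ in how strongly they bind, so an intensity describes its own probe set and does not rank transcripts against each other.

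**Figure D1:**
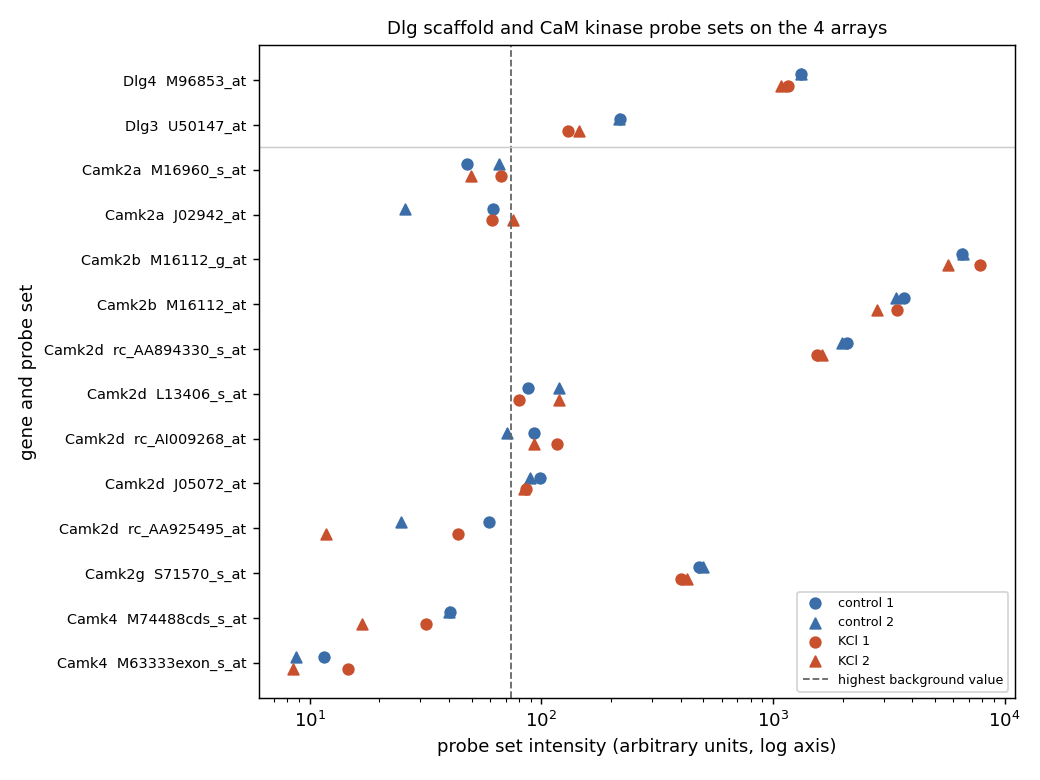
Intensity of each member probe set on each array (horizontal log axis, arbitrary units), with controls in blue, KCl in orange, circles for replicate 1, triangles for replicate 2, and a dashed line at the highest background value of 73.7. Both scaffolds and 6 of 12 kinase probe sets lie right of the line on every array, while the probe sets of Camk2a and Camk4 lie at or left of it except for 1 value of 75.4.

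Dlg4, read by probe set M96853_at, had intensities of 1318.2 and 1324.8 on control 1 and control 2 and of 1163.1 and 1087.5 on KCl 1 and KCl 2. The control arrays nearly coincided, and both KCl arrays lay below both of them. The log2 change was −0.23 ± 0.11 (SE, n = 2 arrays per group; limma adjusted p = 0.24), which is a KCl to control ratio of 0.85 with a 95% interval of 0.71 to 1.02.

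Dlg3, read by U50147_at, showed the larger difference of the scaffolds. Its intensities were 218.4 and 216.4 in controls and 130.3 and 145.3 after KCl, so the groups did not overlap. The log2 change was −0.66 ± 0.20 (limma adjusted p = 0.080), a ratio of 0.63 with an interval of 0.46 to 0.87. Without KCl 2 Dlg3 passed, with a log2 change of −0.74 and an adjusted p of 0.049, in a fit that called 11.2% of all tested probe sets lower (106 of 947). Over its 13 alternatives the adjusted p ran from 0.049 to 0.30, and this was the 1 alternative in which any member passed at an adjusted p below 0.05.

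Camk2b gave the brightest kinase signals, from 2 probe sets built on one sequence record. Probe set M16112_g_at had intensities of 6512.9 and 6639.9 in controls and of 7851.4 and 5710.3 after KCl. KCl 1 thus lay above both controls and KCl 2 below both, and the log2 change was 0.03 ± 0.15 (limma adjusted p = 0.93). Its KCl to control ratio had a 95% interval of 0.81 to 1.29. Probe set M16112_at had 3685.5 and 3390.2 in controls and 3420 and 2813.9 after KCl. There KCl 1 fell between the controls and KCl 2 below them, with a log2 change of −0.19 ± 0.12 (limma adjusted p = 0.38) and a ratio interval of 0.72 to 1.07.

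Camk2a, the gene of the α subunit, had no probe set clear of background. J02942_at gave 62.1 and 25.9 in controls and 61 and 75.4 after KCl, and M16960_s_at gave 47.7 and 65.7 in controls and 66.6 and 49.9 after KCl. On both probe sets the groups overlapped, and 1 of these 8 values, 75.4 on KCl 2, exceeded 73.7. The log2 changes were 0.76 ± 0.53 and 0.04 ± 0.42 (limma adjusted p = 0.41 and 0.96). That of J02942_at ran from 0.13 without control 2 to 1.39 without control 1. Their ratio intervals of 0.73 to 3.91 and 0.53 to 2.02 are too wide to tell a fall from a rise at this signal.

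Camk2d was covered by 5 probe sets, which differed widely in brightness. The bright one, rc_AA894330_s_at, was designed on an expressed sequence tag and gave 2091.4 and 1976.9 in controls and 1554.4 and 1625.5 after KCl. Both KCl arrays lay below both controls. The log2 change was −0.36 ± 0.11 (limma adjusted p = 0.075), a ratio of 0.78 with an interval of 0.66 to 0.93, and this was the smallest p of any member. Over 13 alternatives its adjusted p ran from 0.051 to 0.27, and its log2 change from −0.40 to −0.28.

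The other 4 probe sets of Camk2d were dim. J05072_at gave 99 and 89.2 in controls and 86 and 84.4 after KCl, which did not overlap, with a log2 change of −0.14 ± 0.29. L13406_s_at gave 87.7 and 119 in controls and 80 and 119.7 after KCl, and rc_AI009268_at gave 93 and 70.8 and then 116.4 and 92.6. Both had overlapping groups, with log2 changes of −0.06 ± 0.32 and 0.36 ± 0.31. Probe set rc_AA925495_at lay within background throughout, at 59.6 and 24.8 in controls and 43.7 and 11.7 after KCl. Its log2 change of −0.77 ± 0.86 has the largest error of the tested members. Limma adjusted p-values of these 4 lay between 0.52 and 0.93, and on control 1 the bright probe set read 21.1 times the intensity of J05072_at. Probe sets of one gene share its RNA and are not replicates of each other. The suffix _s marks probe sets whose probes can match several transcripts.

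Camk2g, read by S71570_s_at, had intensities of 478.5 and 500.3 in controls and of 402.1 and 423.4 after KCl. Both KCl values lay below both controls, and the log2 change was −0.25 ± 0.14 (limma adjusted p = 0.30), a ratio of 0.84 with an interval of 0.67 to 1.05.

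Camk4 was left untested, because both of its probe sets were among the dimmest 25% by mean intensity (means up to 33.3), which were set aside. M74488cds_s_at, with a mean of 32.3, was just outside this limit, as rc_AA925495_at of Camk2d, with a mean of 34.95, was just inside it. It gave 40.5 and 40.1 in controls and 31.8 and 16.8 after KCl. M63333exon_s_at gave 11.5 and 8.7 in controls and 14.6 and 8.5 after KCl. All 8 values lay within background, so neither probe set gives a level for Camk4. With dim probe sets kept, the limma adjusted p-values were 0.41 and 0.91.

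**Figure D2:**
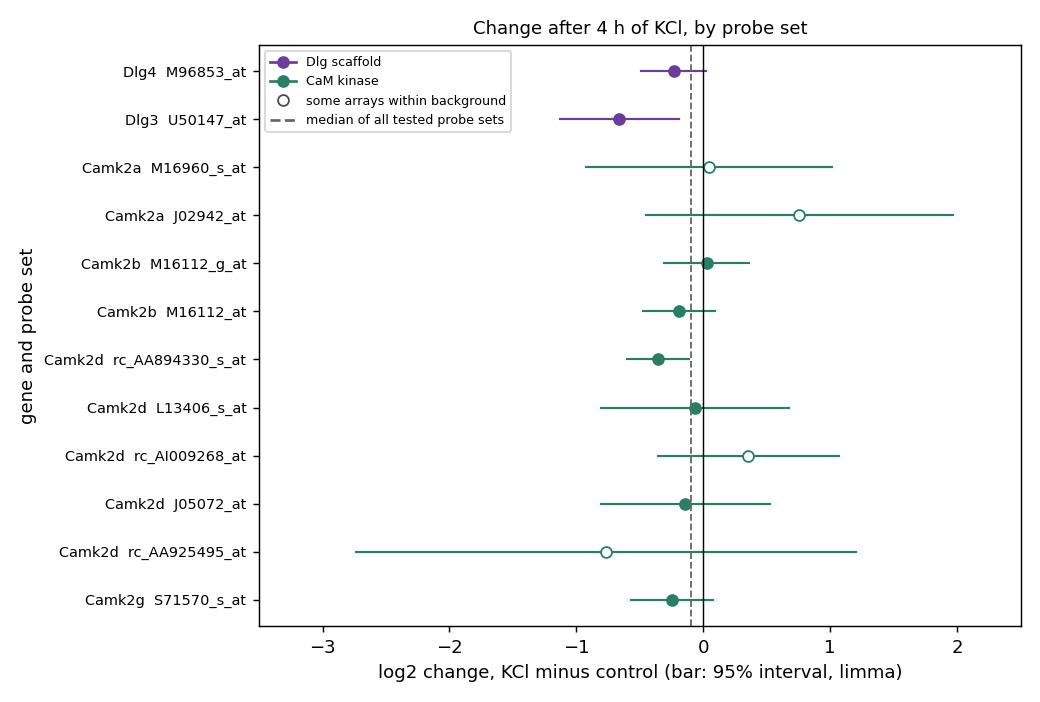
Log2 change from control to KCl (horizontal axis) of the 12 tested member probe sets, with 95% intervals from limma as bars, scaffolds in purple, kinases in green, and open circles where some arrays lay within background. The intervals of Dlg3 (−1.13 to −0.19) and of the bright Camk2d probe set (−0.60 to −0.11) lie below 0, and the other 10 cross it; the dashed line is the median of all tested probe sets, −0.10.

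By probe set the changes of the families overlapped: those of the scaffolds were −0.66 and −0.23, and those of the tested kinases ran from −0.77 to 0.76, with 3 kinase probe sets below Dlg4. The median log2 change was −0.45 over the 2 scaffold probe sets and −0.10 over the 10 tested kinase probe sets, against −0.10 over all 947. On KCl 1 alone, relative to the mean of the controls, the medians were −0.46 for scaffolds, 0.07 for kinases and −0.13 for all tested. On KCl 2 they were −0.43, −0.18 and −0.07. The kinase median exceeded the scaffold median by 0.34, by 0.53 without KCl 2 and by 0.25 without KCl 1. With the dimmest 50% of probe sets left out, the kinase median was −0.22 and the difference 0.23. The scaffold value rests on 1 probe set for each of 2 genes, and no test of the family difference was made. Over the 6 kinase probe sets above background on every array, the median was −0.16, against −0.11 over the 654 such probe sets on the array.

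The groups did not overlap for 5 of the 12 tested members (41.7%), against 58% of all tested probe sets. In all 5, both KCl arrays lay below both controls, as in 36.5% of all tested. They were both scaffolds and 3 of 10 kinase probe sets, and no tested member had both KCl arrays above both controls, against 21.4% of all tested. A log2 change below 0 was found in 8 of 12 members (66.7%), against 60.3% of all. Among probe sets above background on every array, the groups did not overlap in 5 of 8 members (62.5%), against 62.1% of the 654. Both KCl arrays were lower in the same 5 of 8, against 41.3% of the 654. Of the 4 tested members with an array within background, 0 had groups that did not overlap, against 48.8% of the 293 such probe sets on the array.

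**Figure D3:**
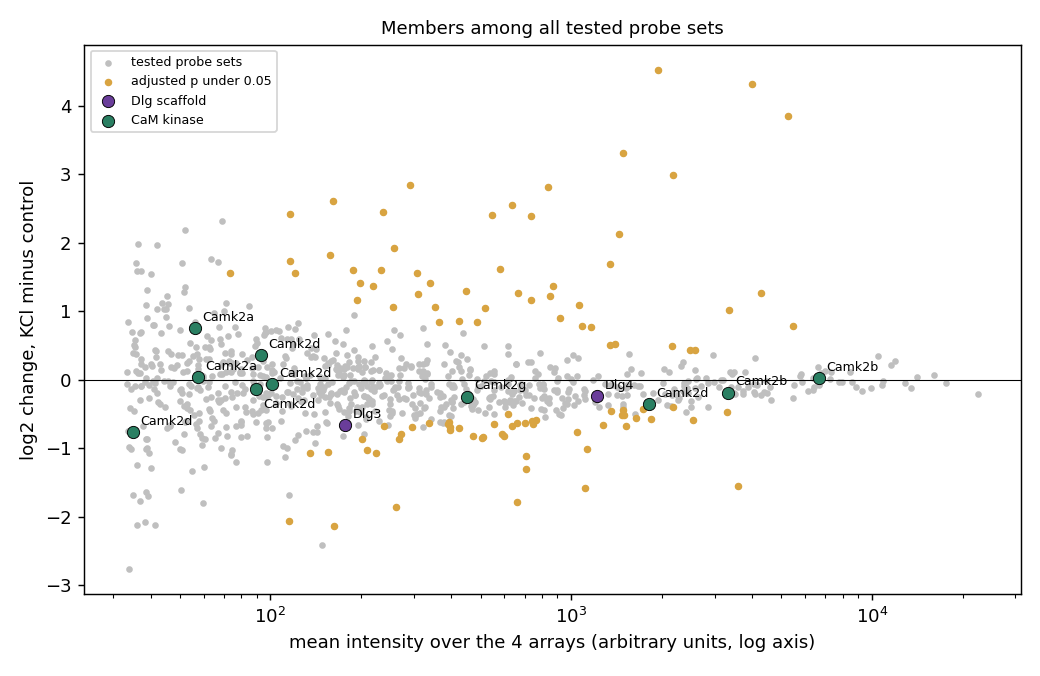
Log2 change from control to KCl against mean intensity (log axis, arbitrary units) for the 947 tested probe sets, in gray, with the 102 called ones in yellow, scaffolds in purple and kinases in green. The members lie inside the gray cloud at every intensity, from 34.95 (Camk2d) to 6679 (Camk2b).

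The arrays carried the markers of the labelled cells, with shifts in those of astrocytes and of inhibitory neurons. Of 12 neuron markers 10 genes were tested and 1 rose. The summed intensity of the 10 genes over 20 probe sets lay between 67447 and 72964 in controls. After KCl it lay between 67103 and 70759. Of 10 astrocyte markers 7 genes were tested and 6 rose, with sums of 9305 to 9441 in controls and of 16159 to 20870 after KCl. Of 6 inhibitory neuron markers 4 genes were tested and 3 fell, with sums of 9967 to 10511 and of 3871 to 4523. The oligodendrocyte list had 4 of 5 genes tested and the sums overlapped (714 to 775 and 694 to 788), and single probe sets stood for the last lists. That for microglia gave 22.9 and 37.6 in controls and 38.4 and 43.3 after KCl, within background, and that for endothelium and fibroblasts gave 76.9 and 80.9 in controls and 129.2 and 131 after KCl, with an unadjusted limma p below 0.05 and no call. The array's RNA integrity controls compare signal at the 3′ end with that at the 5′ end. For beta-actin this ratio was 1.08 and 1.12 in controls and 1.08 and 1.08 after KCl. For GAPDH it was 1.17 and 1.23, then 1.19 and 1.17, and on both controls the groups overlapped. For hexokinase it was 2.25 and 2.00 in controls, with 2.49 and 2.67 after KCl. The part of these shifts in the member values was not tested, and in bulk RNA fewer cells of a type and less RNA per cell cannot be told apart.

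Genes around the members in the same pathway were counted from 3 lists. Of all tested probe sets 5.49% were called higher and 5.28% lower, with a median log2 change of −0.10. Among calmodulin, the proteins it binds and the substrates of its kinases, 14 of 42 genes were tested through 20 probe sets, of which 1 rose and 4 fell, with a median log2 change of −0.22. Crem, a relative of CREB, rose 5.26-fold (limma adjusted p = 9.1e-06). All 4 that fell belonged to Atp2b2 and Itpka. Atp2b2, a plasma membrane calcium pump that calmodulin activates, had log2 changes of −0.49, −0.85 and −2.14 on 3 probe sets. The probe set with −2.14 read 234.4 and 282 in controls and 33.7 and 101.3 after KCl, and 33.7 lies within background. Itpka, a calmodulin-dependent inositol trisphosphate kinase, had −0.63. Camkk1, which encodes a kinase that activates Camk4 and Camk1, had 623.9 and 763.3 in controls and 562.8 and 542.3 after KCl, and Camk1 had 971.8 and 790.2 and then 745.8 and 742. Both lay lower on both KCl arrays and neither passed (log2 changes −0.32 ± 0.15 and −0.24 ± 0.14; limma adjusted p = 0.21 and 0.32). They were picked as close relatives of the members after their values were seen.

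Of the receptors, channels and enzymes that bind Dlg proteins at the synapse, 24 of 37 genes were tested through 38 probe sets. Among these probe sets 0 rose and 3 fell, with a median log2 change of −0.29. Over all tested probe sets 5.49% were called higher and 5.28% lower, and the median was −0.10. Those that fell were Ptk2b, a calcium-activated tyrosine kinase, with −0.65 and −0.87 on 2 probe sets, and Nrxn2, a presynaptic adhesion protein, with −0.59. Of 30 genes for other postsynaptic scaffolds 3 were tested through 5 probe sets and 0 passed in limma. Grip2, a scaffold of AMPA receptors, had the smallest p of that list, with log2 changes of −0.33 and −0.43 on its 2 probe sets, both at an unadjusted p below 0.05. Dlgap4, a relative of Dlgap1 in the same list, had log2 changes of −0.01 ± 0.18 and 0.02 ± 0.19.

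The genes closest to 2 of the members in pattern were taken by the root mean square (RMS) difference of their centred log2 intensities over the 4 arrays. Nearest to Dlg4 were Gria3, an AMPA receptor subunit, with an RMS of 0.015, then Fyn and Pja2 with 0.030 and 0.030, against a median of 0.25 over all other named probe sets. Nearest to the bright Camk2d probe set were Agrn, which encodes the synapse-organizing protein agrin (0.022), Bax (0.032) and Mapk6 (0.034), against a median of 0.26. The rule also asked for Camk2a, but its probe set lies within background on every array, so no likeness to it is given. None of these 6 probe sets passed in limma, with adjusted p-values from 0.059 to 0.66, and 4 arrays give the order little weight. They were picked by this same difference, so their lying below the medians carries no information. Gria3 read 104.5 and 107.1 in controls and 94.5 and 86.5 after KCl, not far above the background limit of 73.7.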

How the data were processed

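The deposited table holds linear intensities, 1 per probe set and array. Per the labels' protocols, the authors made biotin-labelled cRNA from 5 µg of total RNA for 1-colour Affymetrix arrays. The method that summarised and scaled the probes is not given in the sources used here, and the 2% trimmed means of the 4 arrays lay between 502.0 and 502.4, so the values were used as deposited and taken to log2. Of 1322 probe sets, 59 Affymetrix controls were left out. The platform annotation gave 1 symbol to 1137 of the rest, several to 8 and none to 118. After the dimmest 25% were set aside, 947 were fitted with limma 3.58.1 in R 4.3.3 (lmFit, eBayes with an intensity trend, two-sided, Benjamini-Hochberg over all 947). The number of arrays limits the precision, with a median SE of a log2 change of 0.21. Sums of markers are over tested probe sets. Every member is named, other genes are the called members and the 2 smallest p of each pathway list and the 3 nearest patterns, and Camk1, Camkk1 and Dlgap4 were added. The members and lists were chosen with earlier results of these data known. The fit was run on simulated data only as a check of the code, and no result given here rests on that run. Alternatives were other scalings, filters, variance models and thresholds, a pseudocount of 16, a replicate block, and leaving out each array.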

Additional observations from a re-analysis of the deposited data

How the results depend on the processing

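Of 150 refits of the 12 tested member changes, 142 kept direction and side of the threshold. The 1 that gained a call was Dlg3 without KCl 2 (−0.74). The sign turned in 7, never with a call: M16112_g_at of Camk2b with quantile normalization (−0.044), and the rest without 1 array, where ranges were −0.20 to 0.26 for M16112_g_at, −0.19 to 0.27 for M16960_s_at, −0.35 to 0.23 for L13406_s_at and −1.72 to 0.18 for rc_AA925495_at. Members called lower numbered 0 to 1 without each array and 2 at an adjusted p below 0.1 (Dlg3 and the bright Camk2d probe set; 8.66% of all tested probe sets were lower there), and members called higher numbered 0 throughout. The scaffold median was −0.41 with quantile normalization and −0.42 with a pseudocount. Without each array the kinase median ran from −0.18 to 0.069 and the kinase minus scaffold difference from 0.25 to 0.53. Over the whole array, calls without each array ran from 10 to 72 higher and from 1 to 106 lower, both highest counts coming without KCl 2. Without the intensity trend 18 rose and 3 fell, and with an ordinary t statistic 0 and 0 (157 at an unadjusted p below 0.05). Falls numbered 31 with quantile normalization, 33 without the filter, 82 at an adjusted p below 0.1 and 15 with the replicate block, whose numbers only name the arrays (correlation of same-numbered deviations −0.03). With the block 0 members passed. The causes were not tested. Fits without 1 array have fewer arrays, and the replicate block leaves fewer degrees of freedom. Low signal limits Camk2a, Camk4 and every Camk2d probe set but the bright one.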

Other observations

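Within each array the intensity of Dlg3 relative to that of Dlg4 was 0.166 and 0.163 in controls and 0.112 and 0.134 after KCl, so the groups did not overlap. Neither scaffold passed the test, and the difference between them was not tested. This ratio was picked after the values were seen, and no exact test on 2 arrays per group can give a two-sided p below 0.33. The ratio of M16112_g_at to M16112_at, both of Camk2b, was 1.77 and 1.96 in controls and 2.30 and 2.03 after KCl. These did not overlap either, although neither probe set passed the test. Within Camk2d the ratio of rc_AA894330_s_at to J05072_at was 21.1 and 22.2 in controls and 18.1 and 19.3 after KCl, without overlap. That of rc_AA894330_s_at to L13406_s_at was 23.8 and 16.6, then 19.4 and 13.6, and overlapped. None of these ratios was planned or tested, and separation over other pairs was not counted.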
